A study of Mus musculus with 3 samples.

Results

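The genes described are the 10 smooth muscle contractile genes Acta2, Tagln, Cnn1, Myh11, Smtn, Myl9, Tpm1, Tpm2, Lmod1 and Des, out of 18245 genes in the deposited table. They were chosen by symbol, as genes whose proteins build or regulate the contractile apparatus of smooth muscle. Their messenger RNA was measured by RNA sequencing in 3 kinds of cultured mouse cell, with 3 libraries of each. All of the 10 members were in the table and passed the filter on low counts in each comparison.

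All cells came from C57BL/6 mice. CDC are primary cardiosphere-derived cells, which grow out of a tissue explant by way of floating spheres. Here they were raised from the epicardium of the ventricle of 6-week-old mice and used at passage 3. CDC-EpiC is 1 epithelial clone, lifted with a cloning cylinder from CDC cultures grown for 2 weeks in 10 µM SB-431542, a compound that blocks type I receptor signalling by TGF-beta. pEpiC are primary epicardial cells released from hearts of mice 6 to 8 weeks old by enzyme digestion, at passage 3. The spread among the CDC-EpiC libraries holds no difference between clones, and there is neither another clone nor a clone grown without the inhibitor in these data, so the inhibitor, the selection and the clone cannot be told apart. CDC and pEpiC also differ in how they were isolated. The study's methods mention biological replicates, but fewer per condition than the libraries here, whereas its figure legend comparing CDC with pEpiC gives n = 3. The extraction protocol names separate samples, but the public record lists 1 sample per kind, which holds its 3 libraries. The labels do not say which libraries are separate animals or cultures. Each p-value therefore measures only the spread between these libraries, which may be technical.

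Smooth muscle contracts when myosin filaments pull on actin filaments after the regulatory light chain of myosin is phosphorylated. The smooth muscle forms of actin, myosin heavy chain and light chain are closely related to forms that every cell uses for its cytoskeleton. In the embryo, epicardial cells lose their epithelial shape, enter the heart wall and give rise to smooth muscle of the coronary vessels and to fibroblasts. Many contractile genes are bound by serum response factor (SRF) at CArG boxes, and SRF acts there with the coactivators myocardin and the myocardin-related factors. TGF-beta is a well-known inducer of Acta2, Tagln and Cnn1.

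The sequence upstream of contractile genes is shown because such sites are known for this class of gene and most members moved together in the clone. RefSeq (GRCm38.p6) gave a window of 250 bases before and 50 bases after the transcription start for 8 members. Tagln and Myh11 had no entry. A CArG box, searched on both strands as CC, then 6 letters that are each A or T, then GG, was present in 1.63% of the 32851 windows of all genes. Myl9 was the only member with one, starting 161 bases before the start. With up to 1 mismatch among the 6 middle letters, 9.98% of windows held a match, and among members Acta2 and Myl9 did, with 2 each. GGAATG, the core of the motif bound by TEAD factors, was in 14.7% of windows and in those of Acta2, Lmod1, Smtn and Tpm1. CAGAC, a motif bound by SMAD proteins, was in 49.6% of windows and in those of Acta2, Cnn1, Des and Smtn. In Cnn1, Des and Smtn it lay after the start, and in Acta2 235 bases before the start. The longer SMAD motif GTCTAGAC was in 0.213% of windows and in no member's. A match is a description of the letters only. In the lines that follow, capitals mark CArG boxes with at most 1 mismatch and GGAATG. Of Acta2 only the 30 bases around each match are given, 84 and 34 bases before the start. The rest is left out because these sites lie within the span of another annotated transcript.
Acta2, chr19:34255438-34255467, minus strand: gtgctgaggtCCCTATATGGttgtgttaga
Acta2, chr19:34255388-34255417, minus strand: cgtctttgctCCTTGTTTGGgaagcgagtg
Myl9, chr2:156775214-156775407, plus strand: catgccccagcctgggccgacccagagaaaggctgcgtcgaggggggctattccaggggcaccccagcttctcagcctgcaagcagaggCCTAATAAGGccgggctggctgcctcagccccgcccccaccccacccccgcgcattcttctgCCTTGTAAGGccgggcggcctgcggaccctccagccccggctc
Lmod1, chr1:135324563-135324806, plus strand: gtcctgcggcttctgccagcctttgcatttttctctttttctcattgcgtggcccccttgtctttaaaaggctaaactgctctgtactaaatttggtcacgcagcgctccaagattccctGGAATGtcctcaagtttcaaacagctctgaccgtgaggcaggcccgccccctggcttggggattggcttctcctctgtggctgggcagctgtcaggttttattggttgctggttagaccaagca

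The libraries were of even depth, with 22008833 to 22756045 expected counts each. CDC libraries 1 and 2 held some heart muscle transcripts that library 3 lacked. Myh6, the heavy chain of atrial and adult mouse heart myosin, had 191, 190 and 0 counts in CDC libraries 1, 2 and 3. Others were present in all of them, such as Tnnt2 with 220, 238 and 172 counts. The summed level of 10 cardiomyocyte genes was 30.1, 29.9 and 9.56 CPM (counts per 1000000 counts, after TMM normalization) in the same order, 10.1 to 12.8 CPM in CDC-EpiC and 137 to 153 CPM in pEpiC. The summed level of 10 epicardial and mesothelial genes was 709 to 750 CPM in CDC, 5973 to 6931 CPM in CDC-EpiC and 460 to 517 CPM in pEpiC, where Upk3b, Upk1b and Lrrn4 weighed most. Single markers went both ways in pEpiC relative to CDC, with 4 of the 10 higher, Wt1 among them (4.93-fold), and 6 lower. In the clone relative to CDC, 6 of 8 tested were higher and 2 lower. Of all genes tested, 39.8% were higher and 38.5% lower in pEpiC relative to CDC, and 34.2% and 34.6% in the clone. Summed macrophage genes were at 933, 350 and 323 CPM in the pEpiC libraries, 57.9 to 61 CPM in CDC and 22.6 to 25.3 CPM in CDC-EpiC. In bulk RNA, fewer cells that express a gene and less of its RNA per cell cannot be told apart.

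In the clone, 9 of the 10 contractile genes were lower than in CDC and Smtn alone was higher. The falls ranged from 1.41-fold for Tpm2 to 27.3-fold for Myh11, and Smtn was 4.6-fold higher. The median log2 change of the members was -2.40, against 0.003 over all genes tested. All 10 passed the threshold (edgeR quasi-likelihood test, Benjamini-Hochberg adjusted p under 0.05), where 68.8% of 12976 genes did. By direction, 34.2% of all genes were higher and 34.6% lower. The libraries of the kinds did not overlap for any of the 10, as for 72.1% of all genes. With CDC library 3 alone in place of all CDC libraries, no member changed direction. The log2 change of Des was then -0.79, against -2.13 with all CDC libraries.

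Between pEpiC and CDC the members were split. Des, Myl9 and Tagln were higher in pEpiC, Acta2, Cnn1, Tpm1 and Tpm2 were lower, and Myh11, Lmod1 and Smtn did not pass. That is 7 of 10 past the threshold, where 78.3% of 13526 genes passed, 39.8% higher and 38.5% lower. The median log2 change of the members was 0.001, against 0.02 over all genes. The libraries did not overlap for 8 members, as for 81.4% of all genes. The change spanned from 42.4-fold higher (Des) to 3.69-fold lower (Acta2).

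Between CDC-EpiC and pEpiC, 7 members were lower in the clone and Smtn, Tpm1 and Tpm2 were higher. All 10 passed, where 81.9% of 13547 genes did, 40.3% higher and 41.5% lower in the clone. The libraries did not overlap for any member, as for 83.8% of all genes. The median log2 change was -1.94, against -0.02 over all genes. The 3 comparisons share libraries, so they are not independent of each other.

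**Figure D1:**
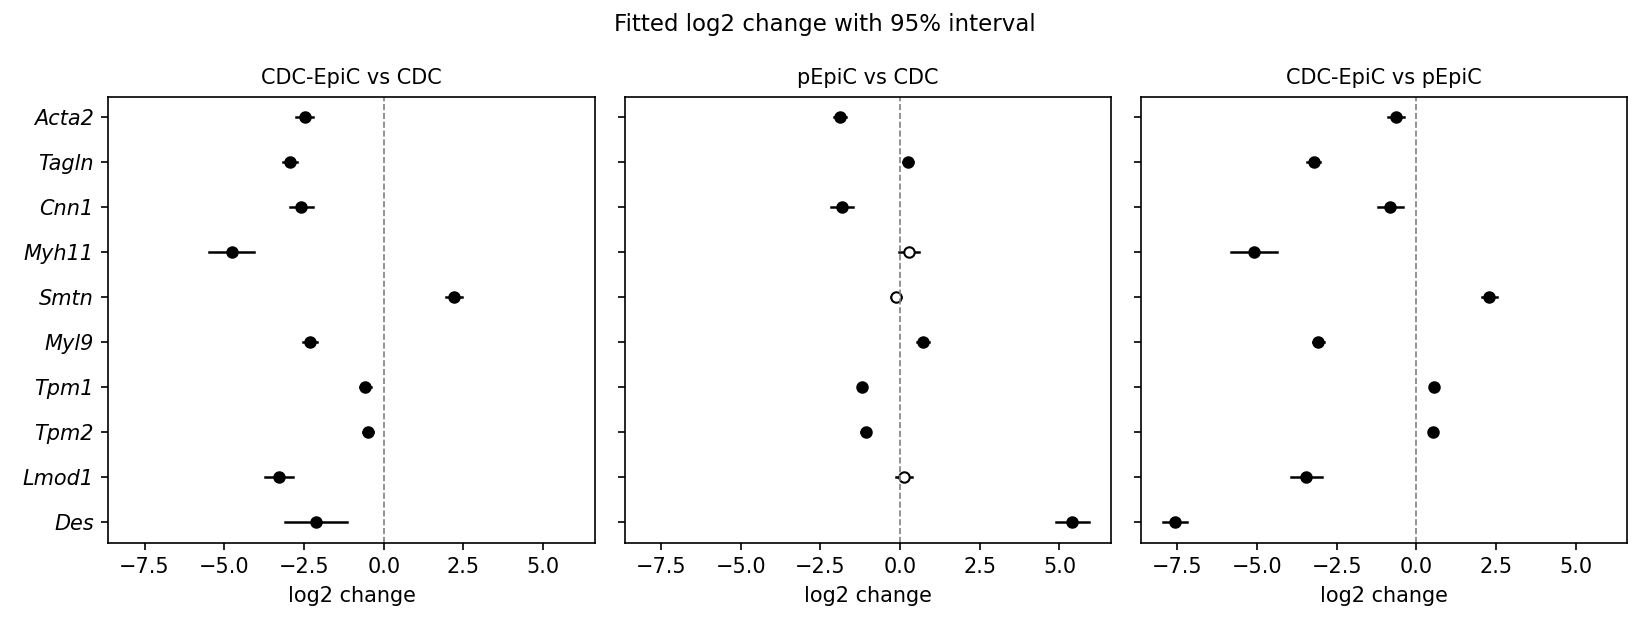
Fitted log2 change of each of the 10 genes in the 3 comparisons (horizontal axis, the first-named kind relative to the second), with 95% intervals as bars. Filled points passed the threshold (adjusted p under 0.05) and open points did not. In CDC-EpiC vs CDC, 9 points lie to the left of 0 and Smtn at 2.20 lies to the right, while Des spans from 5.41 in pEpiC vs CDC to -7.58 in CDC-EpiC vs pEpiC.

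Acta2 (chr19:34240336-34255585, RefSeq gene span on GRCm38.p6, as for the other genes) encodes smooth muscle alpha-actin, the actin of contractile smooth muscle and of activated fibroblasts. Its level was 2207, 1914 and 1751 CPM in the CDC libraries, 291, 422 and 345 CPM in CDC-EpiC, and 535, 536 and 563 CPM in pEpiC. Every CDC library lay above every pEpiC library, and these lay above every library of the clone. Acta2 was 5.58-fold lower in the clone than in CDC (log2 change -2.48, SE 0.130, edgeR adjusted p = 2.1e-10) and 3.69-fold lower in pEpiC than in CDC (log2 change -1.88, SE 0.090, adjusted p = 4e-08). Between the clone and pEpiC the change was smaller, 1.56-fold (log2 change -0.64, SE 0.109, adjusted p = 0.00034).

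The tropomyosins lie along actin filaments and set which proteins bind there, and both genes are also used outside muscle. Tpm1 (chr9:67022590-67049672) was at 979, 989 and 1001 CPM in CDC, 646, 713 and 640 CPM in CDC-EpiC and 447, 445 and 448 CPM in pEpiC. Tpm2 (chr4:43513726-43523583) was at 183, 177 and 166 CPM in CDC, 132, 119 and 124 CPM in CDC-EpiC and 88.1, 83.6 and 84.6 CPM in pEpiC. Both stood in the same order, CDC above the clone and the clone above pEpiC, with no overlap. They had the smallest falls of the members in the clone relative to CDC, 1.49-fold for Tpm1 (log2 change -0.58, SE 0.081, adjusted p = 1.4e-05) and 1.41-fold for Tpm2 (log2 change -0.50, SE 0.077, adjusted p = 3.7e-05). Against a null of at most 1.5-fold change neither passed (adjusted p = 0.676 and 1). In pEpiC they were 2.27-fold and 2.11-fold lower than in CDC. Relative to pEpiC, the clone was higher by 1.48-fold for Tpm1 and 1.45-fold for Tpm2. The smooth muscle and cytoskeletal products of these genes arise by splicing and other starts, and gene counts do not separate them.

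Myh11 (chr16:14194527-14292188) encodes smooth muscle myosin heavy chain, the most restricted marker of mature smooth muscle in the list. It had 87, 75 and 87 counts in CDC, 1, 3 and 5 counts in CDC-EpiC and 108, 118 and 101 counts in pEpiC. These are low levels in every kind, 3.4 to 4.01 CPM in CDC, 0.0443 to 0.222 CPM in the clone and 4.41 to 5.11 CPM in pEpiC. The fitted fall in the clone relative to CDC was 27.3-fold (log2 change -4.77, SE 0.329, adjusted p = 4.3e-09), with a 95% interval of the log2 change of -5.47 to -4.07. Relative to pEpiC the log2 change was -5.09 (SE 0.319, adjusted p = 1.8e-07). pEpiC and CDC libraries did not overlap, but the log2 change of 0.28 (95% interval -0.03 to 0.60) did not pass (adjusted p = 0.0882).

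Myl9 (chr2:156775408-156781657) encodes the regulatory light chain that joins smooth muscle myosin, and its phosphorylation switches contraction on. It was at 56.5, 50.6 and 45.8 CPM in CDC, 9.53, 11.2 and 10.3 CPM in CDC-EpiC and 91.8, 83 and 83.3 CPM in pEpiC. The kinds were fully separated, with pEpiC highest and the clone lowest. Myl9 was 4.96-fold lower in the clone than in CDC (log2 change -2.31, SE 0.099, adjusted p = 2.1e-11). It was 1.65-fold higher in pEpiC than in CDC (log2 change 0.72, SE 0.084, adjusted p = 2.2e-05), which missed the threshold against a null of 1.5-fold (adjusted p = 0.0516). With an offset for the trend over transcript length its log2 change was 1.46, and on log2(TPM + 1) 1.21. The gap between the clone and pEpiC was 8.41-fold (log2 change -3.07, SE 0.073).

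Tagln (chr9:45929628-45936058) encodes transgelin, or SM22-alpha, which binds and bundles actin and is an early marker of the smooth muscle lineage. It was at 276, 265 and 242 CPM in CDC, 29.1, 38.9 and 35.5 CPM in CDC-EpiC and 326, 322 and 310 CPM in pEpiC. The clone lay far below both primary kinds, 7.61-fold below CDC (log2 change -2.93, SE 0.104, adjusted p = 2.3e-12) and 9.35-fold below pEpiC (log2 change -3.23, SE 0.091, adjusted p = 8e-10). pEpiC was 1.19-fold above CDC (log2 change 0.26, SE 0.069, adjusted p = 0.00625), which missed the threshold against a null of 1.5-fold. With the offset for the trend over transcript length that log2 change was 0.68, and on log2(TPM + 1) 0.76.

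Cnn1 (chr9:22099221-22109221) encodes calponin, which binds actin and restrains the myosin ATPase. Its 375, 351 and 269 counts in CDC compared with 46, 58 and 66 in CDC-EpiC and 104, 89 and 113 in pEpiC. Like Acta2, it stood highest in CDC and lowest in the clone with no overlap. It was 6-fold lower in the clone than in CDC (log2 change -2.58, SE 0.166, adjusted p = 2.2e-09) and 3.51-fold lower in pEpiC than in CDC (log2 change -1.81, SE 0.154, adjusted p = 2.1e-06). Between the clone and pEpiC the log2 change was -0.82 (SE 0.179, adjusted p = 0.00181).

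Lmod1 (chr1:135324813-135368065) encodes leiomodin, which starts new actin filaments in smooth muscle. It had 349, 282 and 292 counts in CDC, 18, 41 and 38 in CDC-EpiC and 380, 330 and 378 in pEpiC. The clone was 9.72-fold below CDC (log2 change -3.28, SE 0.205, adjusted p = 1.6e-09) and 10.9-fold below pEpiC (log2 change -3.45, SE 0.217, adjusted p = 2e-07). CDC and pEpiC libraries overlapped, with a log2 change of 0.13 (95% interval -0.11 to 0.37, adjusted p = 0.3).

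Smtn (chr11:3517522-3539292) encodes smoothelin, an actin-binding protein named for contractile smooth muscle. It was at 149, 128 and 133 CPM in CDC, 543, 746 and 612 CPM in CDC-EpiC and 124, 131 and 130 CPM in pEpiC. This is the only member that was highest in the clone, whose lowest library was above every library of the other kinds. It was 4.6-fold higher than in CDC (log2 change 2.20, SE 0.112, adjusted p = 1.4e-10) and 4.87-fold higher than in pEpiC (log2 change 2.28, SE 0.103, adjusted p = 1.8e-08). Over all alternatives tried, the log2 change against CDC ranged from 2.06 to 2.29. CDC and pEpiC overlapped (log2 change -0.12, 95% interval -0.28 to 0.03, adjusted p = 0.124).

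Des (chr1:75360292-75368579) encodes desmin, the intermediate filament of all muscle types. It had 48, 64 and 17 counts in CDC, 6, 9 and 15 counts in CDC-EpiC and 1810, 1933 and 2182 counts in pEpiC. pEpiC stood 42.4-fold above CDC (log2 change 5.41, SE 0.234, adjusted p = 2e-08) and 191-fold above the clone (log2 change of CDC-EpiC vs pEpiC -7.58, SE 0.164, adjusted p = 1.5e-10). The clone was 4.37-fold below CDC (log2 change -2.13, SE 0.450, adjusted p = 0.0006), but the lowest CDC library held 17 counts and the highest library of the clone 15. CDC libraries 1 and 2, where Des was higher, are those with Myh6 counts. Against CDC library 3 alone the log2 change of the clone was -0.79 and did not pass (adjusted p = 0.23), while that of pEpiC was 6.75 (adjusted p = 3.6e-06). Other striated muscle genes moved with Des in pEpiC in part. The summed level of the 10 cardiomyocyte genes was highest there, at 137 to 153 CPM, nearly all of it Tnnt2, heart troponin T, which was at 10.1, 10.8 and 7.83 CPM in CDC and 146, 151 and 135 CPM in pEpiC (14.6-fold higher, edgeR adjusted p = 1.3e-09). Of the 3 cardiomyocyte genes tested in pEpiC vs CDC, Tnnt2 was higher, 1 was lower and 1 did not pass, and Myh6, Myl2 and Actc1 had at most 1 count per pEpiC library. Of 9 skeletal muscle genes in the table, 4 were tested and 2 were higher, where 39.8% of all genes were higher. Myh1, a fast skeletal myosin heavy chain, had 0 counts in each CDC library and 170, 146 and 161 in pEpiC. The part of these cells in the Des result was not tested.

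**Figure D2:**
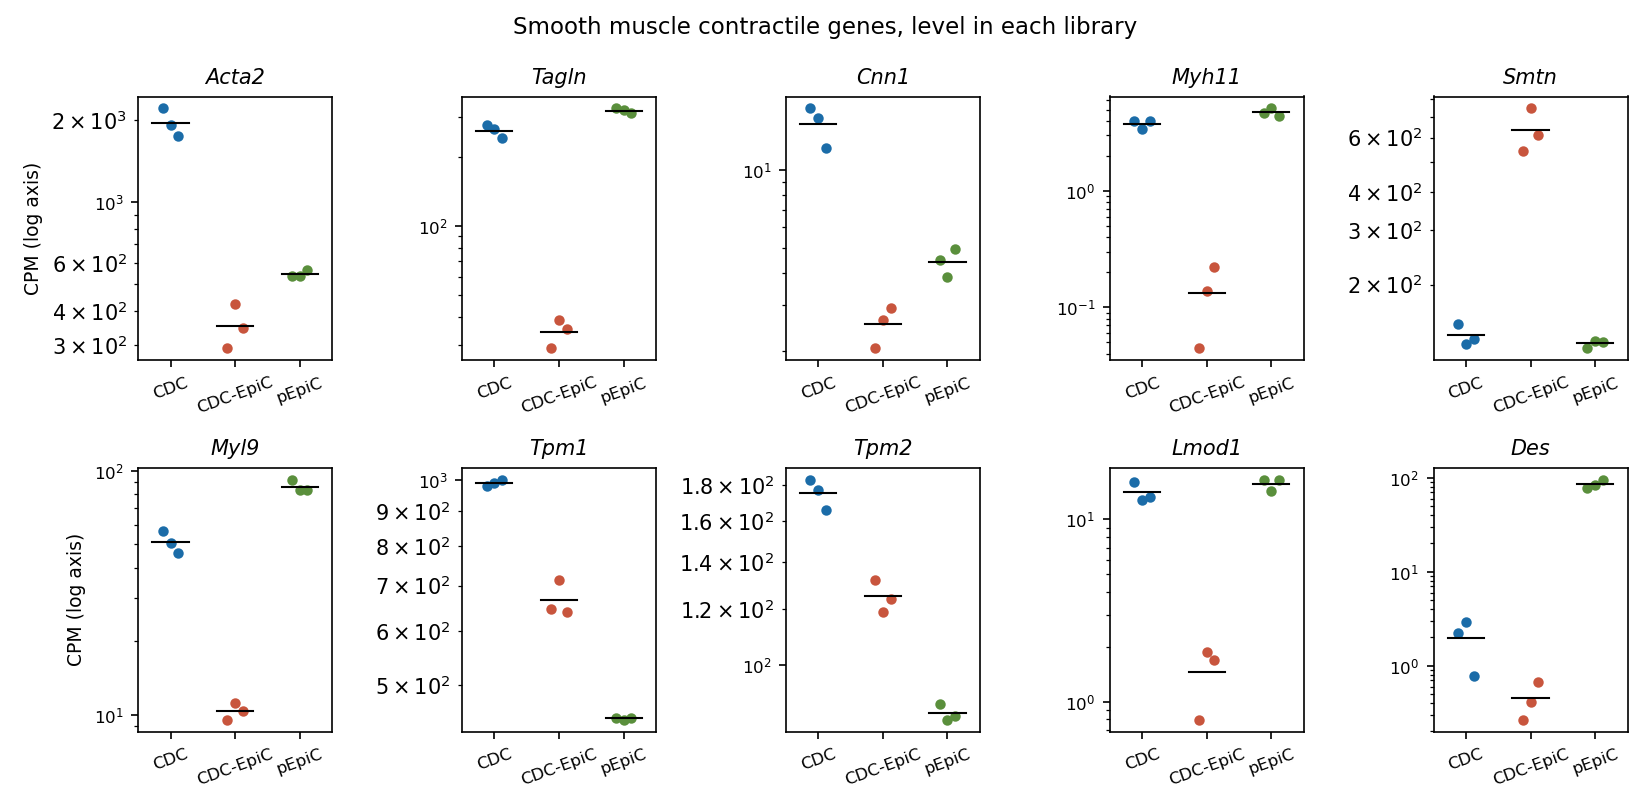
Level of each gene in every library, in CPM after TMM normalization on a log axis whose range differs between panels. Points are the 3 libraries of each kind and the line is their mean. The clone holds the lowest points in 7 panels (Acta2, Tagln, Cnn1, Myh11, Myl9, Lmod1, Des) and the highest in 1 (Smtn).

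Across kinds, 5 members stood highest in pEpiC, then CDC, then the clone (Tagln, Myh11, Myl9, Lmod1 and Des), though the CDC and pEpiC libraries of Lmod1 overlapped. Acta2 and Cnn1 stood highest in CDC with pEpiC between, and Tpm1 and Tpm2 stood highest in CDC with the clone between.

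Levels of different genes can be compared only per length, as TPM (transcripts per 1000000). Acta2 led in CDC at 1733 ± 163 TPM (SD, n = 3), followed by Tpm1 at 1044 ± 46.4 and Tagln at 291 ± 11.4. Des and Myh11 were lowest there, at 1.11 ± 0.593 and 1.13 ± 0.11 TPM, and did not differ beyond their spread. In the clone Tpm1 led at 725 ± 26.5 TPM, and Smtn (347 ± 50.9) and Acta2 (328 ± 53.6) overlapped behind it. In pEpiC Acta2 (678 ± 19.2 TPM) and Tpm1 (645 ± 7.74) led, and Des, at the foot of the list in CDC, reached 67.7 ± 7 TPM. Together the 10 genes made up 3311 to 3654 TPM in CDC, 1495 to 1745 in the clone and 2309 to 2356 in pEpiC.

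Because smooth muscle proteins replace cytoskeletal relatives, each member was also expressed as a share of its family's TPM, which does not depend on how libraries are scaled. There were 9 families and 30 comparisons, tested with a two-sided exact permutation test, in which 3 libraries against 3 cannot give p below 0.10. The libraries did not overlap in 25 of the 30, which gave that smallest p (0.12 after Benjamini-Hochberg adjustment), so no share could pass 0.05.

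Acta2 made up 17% ± 0.806 (SD, n = 3) of the TPM of 6 actin genes in CDC, 4.1% ± 0.265 in the clone and 11.2% ± 0.271 in pEpiC. Tagln took 20.7% ± 0.476 of the transgelins in CDC, 5.24% ± 0.446 in the clone and 52.9% ± 1.4 in pEpiC. Myl9 took 4.39% ± 0.252, 1.36% ± 0.0039 and 15.5% ± 0.553 of its light chain family in the same order. For these 3 genes the share, like the level, was lowest in the clone, and for Tagln and Myl9 it was highest in pEpiC. On counts, the main relatives fell in pEpiC relative to CDC, Tagln2 by 3.61-fold and Myl12a by 2.87-fold. Tagln rose 1.19-fold and Myl9 1.65-fold, so part of the rise in these shares lies in the relatives.

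Cnn1 was a minor calponin in every kind, at 1.46% ± 0.232 in CDC, 0.541% ± 0.0878 in the clone and 0.84% ± 0.104 in pEpiC. Myh11 held 0.259% ± 0.0142, 0.0177% ± 0.00984 and 0.37% ± 0.0421 of its 4 heavy chain genes, so nearly all of that TPM was of non-muscle myosin. Des held 0.027% ± 0.0157 of the sum of Des and Vim in CDC, 0.0118% ± 0.00487 in the clone and 2.49% ± 0.234 in pEpiC, and the CDC and clone libraries overlapped. Desmin was thus a small part beside vimentin in all kinds.

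The tropomyosins behaved otherwise. Tpm1 took 44% ± 0.656 of tropomyosin TPM in CDC and 44.5% ± 2.03 in the clone, with overlapping libraries (exact p = 0.80), against 31.7% ± 0.449 in pEpiC. Tpm2 took 8.5% ± 0.491, 9.67% ± 0.79 and 6.93% ± 0.0719. Smtn held 97.3% ± 0.188 of the smoothelin family in CDC, 99.5% ± 0.16 in the clone and 89.1% ± 0.973 in pEpiC, so it was the main smoothelin gene in each. Lmod1 held 93.7% ± 4.73 of the leiomodins in CDC, 100% in each library of the clone and 99.3% ± 0.849 in pEpiC. Reads of near-identical relatives (the muscle actins, the light chains, the tropomyosins) are divided between genes by estimation, so these shares are uncertain to that degree.

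**Figure D3:**
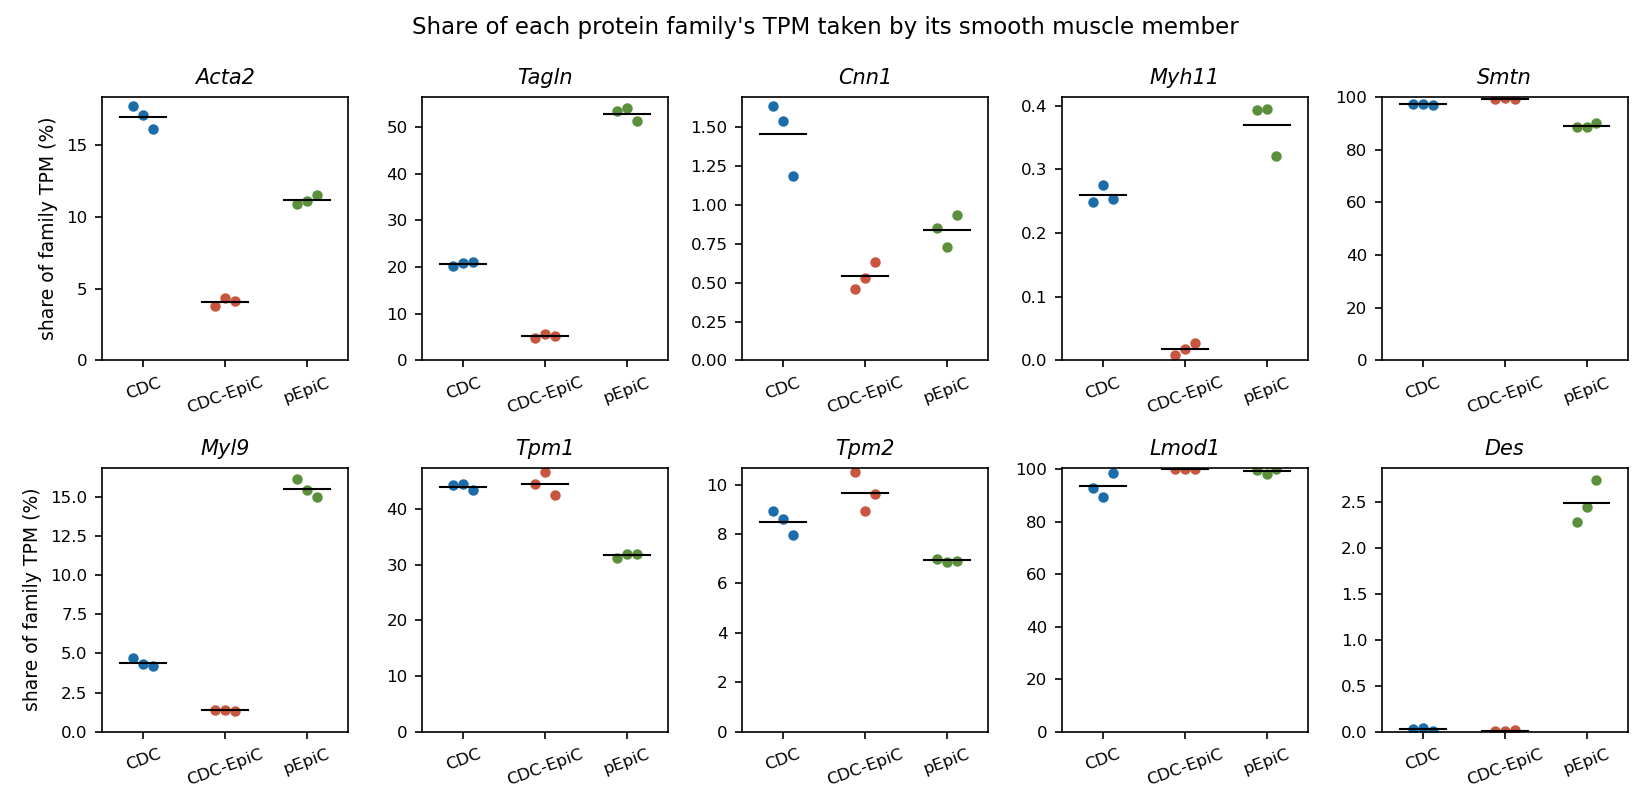
Share of each protein family's TPM taken by the smooth muscle gene, in percent (vertical axis from 0, range differing between panels), for the 3 libraries of each kind with their mean as a line. Acta2, Tagln, Myl9, Cnn1 and Myh11 have their lowest shares in CDC-EpiC, while Tpm1 overlaps between CDC and CDC-EpiC.

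The other genes of contraction were read from a list of 16 signalling genes, of which 14 were tested in each comparison. In the clone relative to CDC, 3 were higher, 7 lower and 4 did not pass, with a median log2 change of -0.67. Of all genes tested, 34.2% were higher and 34.6% lower there. Mylk, the kinase that phosphorylates the myosin light chain, was at 120, 115 and 155 CPM in CDC and 780, 893 and 868 CPM in the clone, 6.47-fold higher (log2 change 2.69, SE 0.112, adjusted p = 1.4e-11). Agtr1a, a receptor for angiotensin II, had 5, 5 and 9 counts in CDC, 1049, 1165 and 1133 in the clone and 329, 315 and 318 in pEpiC, a log2 change of 7.40 in the clone and 5.53 in pEpiC, each relative to CDC. Cacna1c, the L-type calcium channel, fell in the clone by 1.93 on the log2 scale. The kinase and the receptor thus moved with Smtn and against the filament genes in the clone. These counts are per gene and do not separate the transcripts of Smtn or of Mylk. In pEpiC relative to CDC, 10 of the 14 were higher and 3 lower, where 39.8% and 38.5% of all genes were. Ednra, an endothelin receptor, rose there from 11 to 14 counts to 236 to 252 counts (log2 change 4.16). Against pEpiC, the clone was higher in 3 and lower in 10 of the 14, where 40.3% and 41.5% of all genes were. The same shares of all genes stand beside the counts of the lists that follow.

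Of 16 transcriptional regulators of smooth muscle genes, 15 were tested. In the clone, 7 were higher and 8 lower than in CDC, where 34.2% and 34.6% of all genes were. Srf was at 92.1, 94.5 and 81.4 CPM in CDC and 88.3, 126 and 113 CPM in the clone, overlapping, with a log2 change of 0.28 (SE 0.110, adjusted p = 0.0353). Myocd, the gene of myocardin, had 4, 2 and 3 counts in CDC, 0 in each library of the clone and 5, 9 and 13 in pEpiC, too few for a test. The myocardin-related factor Mkl1 (Mrtfa) fell in the clone by 0.79 on the log2 scale and in pEpiC by 1.33, each relative to CDC. The other myocardin-related factor of the list, Mkl2 (Mrtfb), went the other way and rose by 0.88 and 0.59 in the same order. Prrx1, a mesenchymal homeobox factor, fell by 2.15 in the clone, where Gata6 was 3.18-fold higher. In pEpiC, 7 regulators were higher and 7 lower than in CDC, led by Fhl2 (log2 change 1.47). In the clone relative to pEpiC, 7 were higher and 7 lower.

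Of 18 genes of dense bodies, adhesions and actin linkage, the clone was higher than CDC in 1 (Zyx, zyxin, log2 change 1.11) and lower in 10, among them Nexn (-1.74) and Pdlim5 (-1.39). In pEpiC 5 were higher than in CDC and 7 lower. Synpo2, an actin-bundling protein of muscle, was 23.2-fold higher and Itga8, an integrin of smooth muscle and mesenchyme, 9.04-fold higher. Of the other muscle isoforms, 6 of 18 were tested in the clone against CDC, with 1 higher and 2 lower. Actg2, the enteric smooth muscle actin, was among the lower, with 46, 54 and 52 counts in CDC and 3, 3 and 5 in the clone. In pEpiC, 3 of 7 tested were higher and 2 lower than in CDC. The non-muscle relatives of the members fell as well in the clone, 10 of 14 lower and 1 higher, but with a median log2 change of -0.68 against -2.40 for the members. In pEpiC, 12 of the 14 were lower than in CDC and 2 higher, with Myl6 falling by 2.11 and Tagln2 by 1.85 on the log2 scale. Against pEpiC, the clone was higher in 4, 2 and 8 and lower in 8, 3 and 6 of these 3 lists, in the order given.

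**Figure D4:**
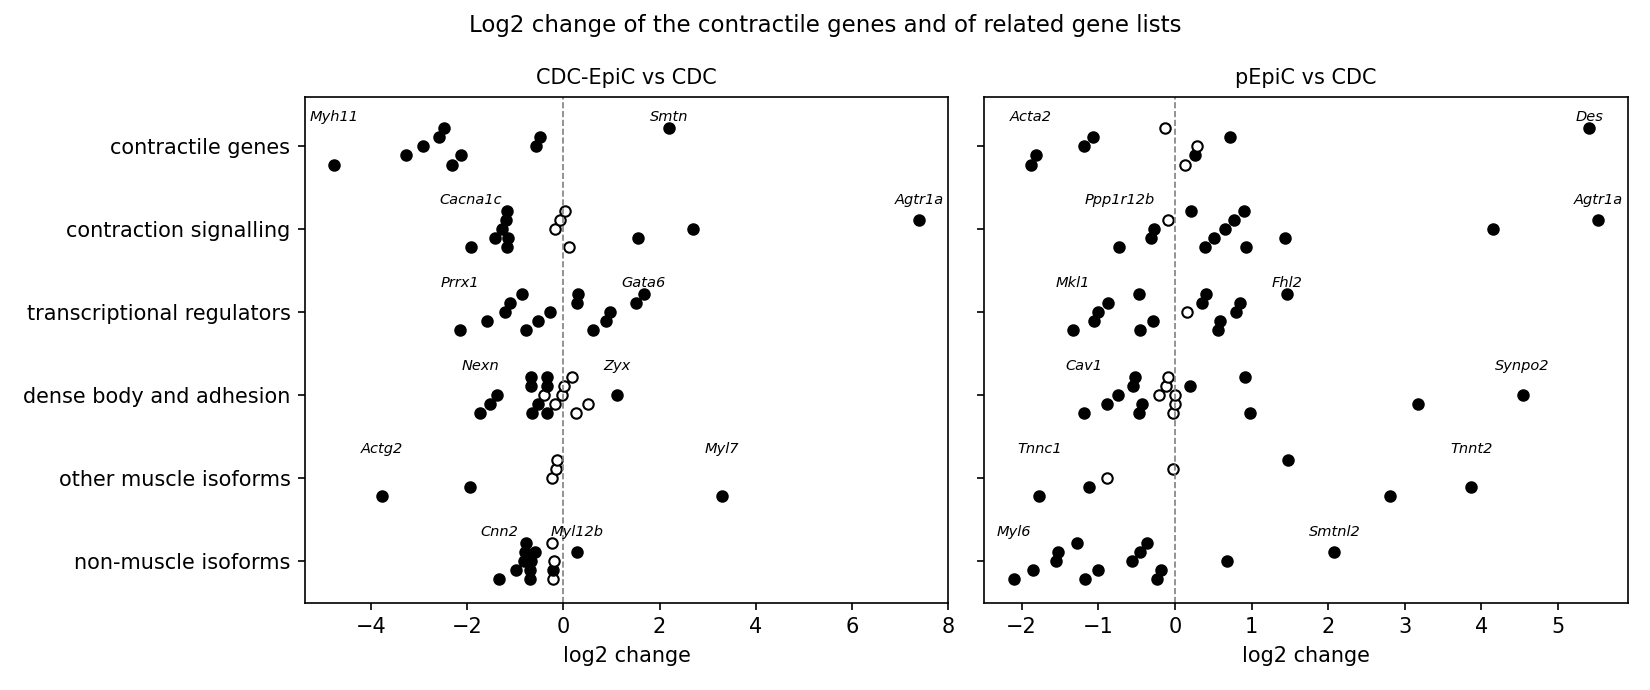
Log2 change of the contractile genes and of 5 related gene lists (rows) in CDC-EpiC vs CDC and in pEpiC vs CDC (horizontal axes differ). Each point is a tested gene, filled where it passed the threshold, and the lowest and highest gene of each row are named. In the clone Agtr1a at 7.40 stands apart from contraction signalling genes that lie mostly below 0, and in pEpiC Des at 5.41 and Synpo2 at 4.54 stand apart from their rows.

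Markers of other cell types that express contractile genes were read from the same libraries. Of 8 genes of mural cells, the pericytes and smooth muscle of vessels, the summed level was 303 to 359 CPM in CDC, 68.5 to 83.7 CPM in CDC-EpiC and 1253 to 1309 CPM in pEpiC, mostly Pdgfrb. Of 5 tested in pEpiC vs CDC, 4 were higher and 1 lower, where 39.8% and 38.5% of all genes were. Counts of Cspg4 (NG2) were 1, 4 and 0 in the CDC libraries against 64, 62 and 86 in those of pEpiC, Abcc9 was 13.6-fold higher and Notch3 1.31-fold higher in pEpiC. Rgs5, a defining pericyte gene, reached 8, 5 and 12 counts in CDC against 9, 8 and 9 for pEpiC, and Higd1b at most 1 count in any library. In the clone relative to CDC, 3 of 4 tested were lower and Kcnj8 was higher. Fibroblast genes, also expressed by the contractile form of fibroblasts, summed to 9316 to 12461 CPM in CDC, 6449 to 7984 CPM in the clone and 31305 to 34203 CPM in pEpiC. All of the 8 fibroblast markers tested were higher in pEpiC than in CDC, as were 39.8% of all genes. In the clone relative to CDC, 3 were higher (Dcn 3.96-fold, Tcf21 2.27-fold and Pdgfra 2.09-fold), 3 were lower and 2 did not pass. In CPM, the order of both sums across kinds was that of Tagln, Myh11, Myl9, Lmod1 and Des. The summed macrophage genes stood in that order too, so it was not particular to these cell types. Acta2, Cnn1, Smtn, Tpm1 and Tpm2 stood in other orders. In TPM the fibroblast sums of CDC (3081 to 4426) and of the clone (3373 to 3967) overlapped. The part of these cell types in the results was not tested. The macrophage sum of pEpiC library 1 was above that of the other pEpiC libraries, and leaving that library out changed no member's call.

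The genes whose level was most like that of Acta2 and of Smtn over the 9 libraries were sought among 9472 genes of at least 10 CPM on average. For Acta2 these were Garem2 and Trim16 (Pearson's r = 0.9974 each), Tnfaip1 (0.9972), Adamtsl4 (0.9955) and Selenow (0.9949). Selenow, for example, averaged 296 CPM in CDC, 41.3 CPM in the clone and 75.2 CPM in pEpiC. For Smtn they were Cers4 (0.9979), Rbm28 and Mgrn1 (0.9976 each), Fads2 (0.9975) and Ergic3 (0.9974). The 9 libraries fall into 3 kinds, so these values describe mainly the 3 group means and carry no test.

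The pEpiC comparisons depended on scaling. TPM divides by transcript length and sums to 1000000 in each library. On TPM, the median of all genes moved by 0.43 on the log2 scale in pEpiC vs CDC and by -0.33 in CDC-EpiC vs pEpiC. There 73.8% of the genes called in pEpiC vs CDC were higher, against 50.8% on counts, and 33.8% against 49.3% in CDC-EpiC vs pEpiC. On TPM, Myh11, Lmod1 and Smtn were called higher in pEpiC than in CDC, but relative to that median their changes were 0.008, 0.13 and -0.05. The changes of the other 7 kept their sign relative to the median, from -1.78 for Acta2 to 4.63 for Des. With the offset for transcript length Smtn was instead called lower in pEpiC than in CDC (log2 change -0.20, adjusted p = 0.0151). On log2(FPKM + 1), which also divides by transcript length, the median of all genes moved by 0.06 in pEpiC vs CDC. On that scale 3 members were called higher and 4 lower, as on counts, and 53.9% of the genes called were higher.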

How the data were processed

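RNA of 3 kinds of cultured mouse cell was selected on oligo(dT), primed with random hexamers and read as pairs of 100 bases on a BGISEQ-500. The authors deposited 1 table of 18245 genes with expected counts, FPKM and TPM for 3 libraries of each kind, and 9 columns of means that were not used. Of the expected counts the authors deposited, 30.3% were not whole. The deposited FPKM are scaled to transcript length and depth, and the TPM that the authors deposited sum to 1000000 per library. The submitters' processing notes name HISAT2 2.0.4, Bowtie2 2.2.5, RSEM 1.2.12, DESeq2 1.4.5 and the build mm10, with no role or order. Annotation and use of strand are not given in the sources used here.

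Library columns were matched to kinds by name and taken as unpaired replicates, since the extraction protocol names separate samples. The public record lists only 1 sample per kind. Libraries of a kind differed by more than read sampling (chi-square per degree of freedom 4.89 to 23). Expected counts were rounded and fitted in edgeR 4.0.16 (R 4.3.3), 6 libraries per comparison, with filterByExpr (minimum count 10, minimum total 15), TMM normalization and the quasi-likelihood test, adjusted by Benjamini-Hochberg over all genes tested at 0.05. CPM used TMM factors over all 9 libraries. Intervals are 95%. Family shares were tested by exact permutation with SciPy 1.17.1. Scripts were tested on simulated data. Gene positions and promoter windows are those of RefSeq on GRCm38.p6, the assembly of mm10.

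The members and lists were chosen with earlier results of these data known. Within each list, genes past the threshold were named by largest change, at most 3 a comparison, and 1 such gene is not reported here. Other list genes (Srf, Myocd, Zyx, Mkl1 in the clone, Mkl2, and the cell type markers) were named after their values were seen. The fits were repeated in DESeq2 1.42.0, with RLE factors, with scaling by library size alone, unfiltered, with a minimum of 10 counts in each library, with all 9 libraries fitted together, in limma 3.58.1 on log2(TPM + 1), log2(TPM + 0.1) and log2(FPKM + 1), with an offset for the length trend, against a null of 1.5-fold change, without each library and, chosen after seeing the data, with CDC library 3 alone and with the library number as a block.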

Additional observations from a re-analysis of the deposited data

How the results depend on the processing

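No member's call changed when 1 library was left out, and in CDC-EpiC vs CDC the 10 calls held under every setting tried that tested the gene, except Tpm1 and Tpm2 against a 1.5-fold null and Des with CDC library 3 alone (-0.785, adjusted p = 0.23). In pEpiC vs CDC the number of members called higher, 3 as reported, was 6 with limma on log2(TPM + 1), filtered or not, and on log2(TPM + 0.1), and 1 against a 1.5-fold null. Of all genes called in these settings, 73.8% were higher on both filtered TPM scales, 74.5% unfiltered and 50.5% against that null. In CDC-EpiC vs pEpiC that null left 6 members past the threshold and 1 higher, where 6578 of 13547 genes passed. Changes that missed the threshold turned sign: Smtn in pEpiC vs CDC was 0.385 on log2(TPM + 1) with or without the filter, 0.389 on log2(TPM + 0.1) and 0.006 on log2(FPKM + 1), and with the length offset Myh11 was -0.133 and Lmod1 -0.037. In the same comparison some gained a call: Smtn lower with the length offset (-0.202, adjusted p = 0.0151), Smtn and Lmod1 higher on TPM, and Myh11 higher on TPM, with library size alone (adjusted p = 0.0247) and with at least 10 counts in each library (adjusted p = 0.0439). Library size alone moved the median of all genes in pEpiC vs CDC to 0.13 (log2). The causes were not tested. The Tpm1 share in CDC-EpiC minus CDC ranged from -0.544 to 1.48 percentage points with 1 library left out. With the length offset, Tpm2 in CDC-EpiC vs pEpiC was 0.125 and missed the threshold (edgeR adjusted p = 0.0511). Counts limit Myh11 and Des in the clone. The columns number the libraries, but nothing says that a number pairs them across kinds. Deviations from the kind means correlated at -0.119 to 0.0841 between libraries of the same number. A replicate block on that number, added after seeing the data, changed no member's call (10, 7 and 10 past the threshold in CDC-EpiC vs CDC, pEpiC vs CDC and CDC-EpiC vs pEpiC). With the block, 8831 of 12976, 10604 of 13526 and 11096 of 13547 genes passed, in that order.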
